A study of Homo sapiens with 6 samples.

Results

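CD44 and 9 genes used to place a carcinoma cell between an epithelial and a mesenchymal state were followed in Huh7-R cells, written Huh7SR in the sample labels, after treatment with fostamatinib. The 10 genes were listed by name, and their rows were taken by symbol from the deposited expression values. Of the 10, CD44, EPCAM, CDH1, CDH2, VIM, FN1, ZEB1 and ZEB2 were found among 16305 different genes, while SNAI2 and TWIST1 were not analysed here. Huh7 is a human hepatocellular carcinoma line, and Huh7-R is 1 pool of cells selected from it for growth in sorafenib, a kinase inhibitor used against liver cancer. RNA of 3 samples treated with fostamatinib, a prodrug whose active form inhibits spleen tyrosine kinase, was compared with RNA of 3 samples that received the solvent DMSO. The study did not detect the protein of this kinase in Huh7 cells, and through which kinase the drug acted was not tested here. The labels give a concentration of 2 µM, which they also write for the DMSO samples, and 24 h of exposure in both groups. Every sample is sorafenib-resistant, so the comparison asks what fostamatinib did to these transcripts in resistant cells and holds no parental Huh7 sample. The labels describe triplicate treatments and do not say whether these were separate cultures. Each p-value therefore rests on the spread between these samples, in limma pooled in part across genes, and that spread may be technical.

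Epithelial cells are held to each other by E-cadherin, the product of CDH1, and by EPCAM, a cell adhesion molecule of simple epithelia and of many carcinomas. In epithelial-mesenchymal transition a cell lowers E-cadherin, raises N-cadherin (CDH2), the intermediate filament protein vimentin (VIM) and the matrix protein fibronectin (FN1), and becomes more motile. The zinc-finger repressors ZEB1 and ZEB2 bind E-box sequences in the CDH1 promoter and lower its transcription. CD44 is a surface receptor for hyaluronan, a matrix polysaccharide, and is used with EPCAM as a marker of tumour-initiating cells in liver cancer. Tumour cells often occupy states between the epithelial and the mesenchymal one, and carry markers of both.

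Promoters of CD44, VIM, ZEB2 and ZEB1, which fell, and of FN1, which was not called, are shown so that the letters around these starts can be read beside the values. RefSeq windows of 250 bases before to 50 bases after an annotated transcription start were given for 6 of the 8 measured members, in 13 windows on GRCh38.p14, of which 7 belong to ZEB1. Lower case letters are the reference sequence read 5′ to 3′ on the strand of the gene. Capitals mark matches to an E-box recognised by ZEB proteins (CAGGTG or CACCTG), to the AP-1 motif (TGANTCA) or to the GC box of Sp1 (GGGCGG or CCGCCC), each searched on both strands, with overlapping matches each counted. The window of CD44 is at chr11:35138921-35139220 (plus strand), that of VIM at chr10:17227991-17228290 (plus strand), that of ZEB2 at chr2:144520070-144520369 (minus strand) and that of FN1 at chr2:215436019-215436318 (minus strand). ZEB1 is shown by the window with the most E-boxes of its 7, at chr10:31318966-31319265 (plus strand).
CD44: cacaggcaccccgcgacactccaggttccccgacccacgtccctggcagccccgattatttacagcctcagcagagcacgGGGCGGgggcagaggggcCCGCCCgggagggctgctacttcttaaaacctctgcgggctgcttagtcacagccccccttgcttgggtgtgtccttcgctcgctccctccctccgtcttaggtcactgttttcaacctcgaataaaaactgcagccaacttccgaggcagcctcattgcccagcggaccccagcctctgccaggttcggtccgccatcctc
VIM: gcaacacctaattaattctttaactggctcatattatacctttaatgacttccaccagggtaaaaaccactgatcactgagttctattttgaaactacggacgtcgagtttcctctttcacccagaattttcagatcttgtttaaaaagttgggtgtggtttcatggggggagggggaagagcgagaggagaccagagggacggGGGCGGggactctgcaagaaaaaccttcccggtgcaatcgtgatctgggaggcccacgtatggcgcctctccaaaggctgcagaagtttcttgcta
ZEB2: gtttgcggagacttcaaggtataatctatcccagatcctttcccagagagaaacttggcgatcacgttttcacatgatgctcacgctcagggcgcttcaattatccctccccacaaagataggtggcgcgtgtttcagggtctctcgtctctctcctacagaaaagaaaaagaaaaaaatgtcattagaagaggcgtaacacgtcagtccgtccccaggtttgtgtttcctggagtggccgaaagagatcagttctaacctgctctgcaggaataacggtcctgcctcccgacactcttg
ZEB1: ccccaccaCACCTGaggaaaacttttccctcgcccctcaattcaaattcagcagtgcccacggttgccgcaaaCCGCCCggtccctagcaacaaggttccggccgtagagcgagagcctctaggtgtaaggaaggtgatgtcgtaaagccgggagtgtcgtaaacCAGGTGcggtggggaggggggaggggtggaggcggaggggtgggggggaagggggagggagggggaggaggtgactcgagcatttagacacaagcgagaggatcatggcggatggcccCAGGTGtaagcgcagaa
FN1: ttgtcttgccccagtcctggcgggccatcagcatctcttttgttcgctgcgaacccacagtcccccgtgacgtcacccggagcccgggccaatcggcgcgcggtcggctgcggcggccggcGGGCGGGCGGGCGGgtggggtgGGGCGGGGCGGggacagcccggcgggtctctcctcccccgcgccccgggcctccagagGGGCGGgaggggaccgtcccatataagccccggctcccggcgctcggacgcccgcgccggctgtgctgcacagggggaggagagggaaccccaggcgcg

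The CD44 window held 2 GC boxes, which begin 170 and 152 bases before the start, and no match to the other motifs. The VIM window held a single GC box, 46 bases before the start, and the ZEB2 window held none of the 3 motifs. The ZEB1 window shown held 3 E-boxes, which begin 242 and 85 bases before and 34 bases after the start, and 1 GC box. Another ZEB1 window held a single E-box, 57 bases before its start, and the remaining windows of ZEB1 held none. FN1 carried 6 GC boxes. Over all 35116 promoter windows of the same length, 20.6% held the E-box, 7.71% the AP-1 motif and 45% the GC box. The only AP-1 match among the 13 windows lay in 1 of the 2 windows of CDH2, 102 bases before that start. These matches describe the letters of the reference and were not tested for binding.

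Each sample held between 13303451 and 15272737 reads, counting only genes that passed the study's filter. The values are log2 CPM, that is, read counts divided by library size (CPM) on a log2 scale, and each could be turned back into a whole number of reads. The lowest value of a member was 309 reads, for ZEB1, so none was limited by a near-zero count. Counts of 2 replicates of one group differed by 1.65 to 3.75 times pure counting error per gene (chi-square), whereas counts of a DMSO and a fostamatinib sample differed by 39.8 to 44.5 times. Across all genes, 47.8% were called (adjusted p under 0.05 in limma with Benjamini-Hochberg adjustment over all 16305 genes). Fostamatinib raised 23.3% of all genes and lowered 24.5%, and in 54.1% of all genes no sample of one group fell inside the range of the other.

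With 7 of the 8 measured members called (87.5%, beside the 47.8% of all genes), 5 were lower and 2 were higher with fostamatinib. The share over all genes includes genes with far fewer reads than any member, in which a difference is harder to call. Among genes with at least 10 reads in every sample, 7321 of 13287 were called. CD44, ZEB2, VIM, ZEB1 and CDH2 fell, CDH1 and EPCAM rose, and FN1 was not called. The same 7 members had groups that did not overlap. CD44 alone was both called and changed by more than 2-fold, 12.5% of the measured members beside 7.13% of all genes. The median log2 difference of the 8 was -0.23, beside 0.0015 over all genes, and the median of its absolute size was 0.35, beside 0.27.

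**Figure D1:**
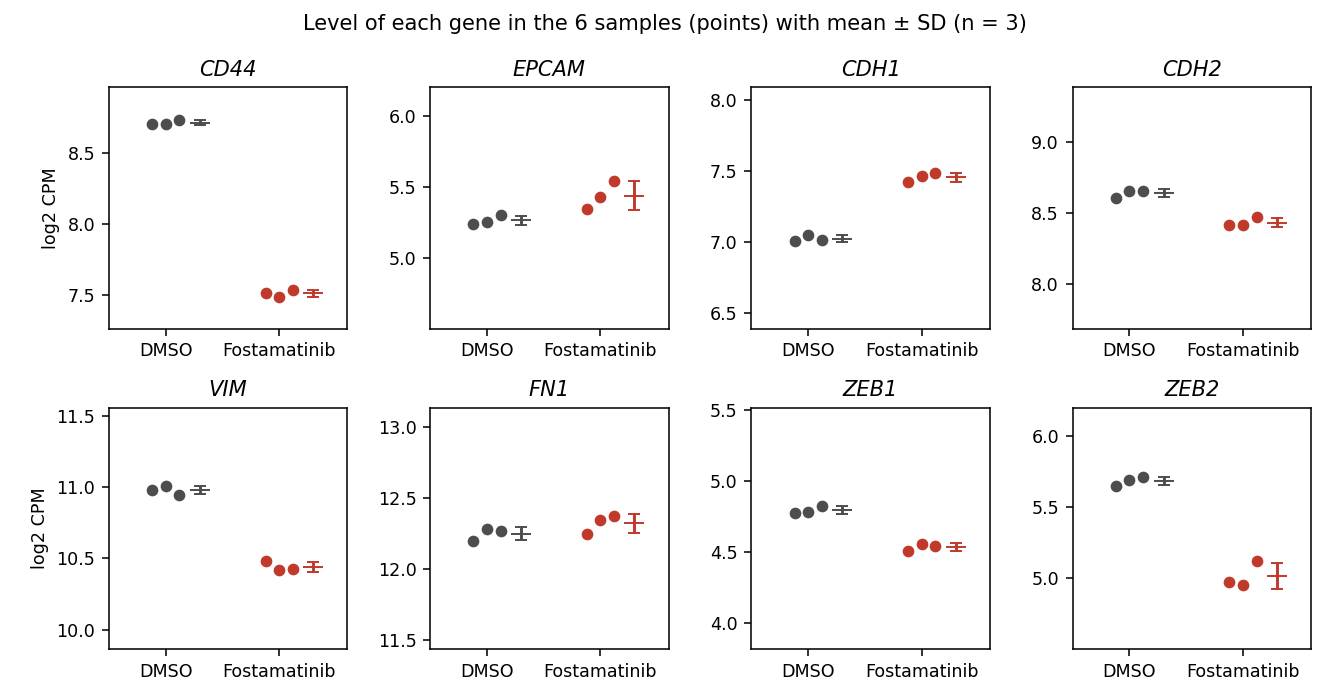
Level of each measured gene in log2 CPM (vertical axis, spanning the same number of log2 units in all panels) in the 3 DMSO samples (grey) and the 3 fostamatinib samples (red), with the mean and SD beside the points (n = 3). The groups of CD44 lie farthest apart, those of EPCAM nearly touch, and those of FN1 overlap.

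CD44 had the largest difference among the members. Its level was 8.71, 8.70 and 8.74 log2 CPM in DMSO and 7.51, 7.49 and 7.54 with fostamatinib. These values correspond to 5753, 6364 and 6337 reads against 2515, 2556 and 2458. All fostamatinib samples lay below all DMSO samples, and the gap between the groups was 24.0 times the widest range within a group. The level fell by 1.20 on the log2 scale (SE 0.037, 95% interval -1.28 to -1.13, adjusted p = 2.96e-24, limma), which is 2.30-fold lower. In absolute size this exceeded 93.8% of all genes. An exact permutation test of 3 samples against 3 gave p = 0.10, the smallest value it can give, for CD44 and for each of the other 6 called members. CD44 also stands in a list of genes that the study chose on these same samples, so its direction is not independent evidence. In bulk RNA, fewer cells that carry CD44 and less CD44 RNA in each cell cannot be told apart, which applies to every gene described here.

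CD44 (ENSG00000026508) lies at chr11:35160429-35253949 on the plus strand of GRCh37 and has 38 annotated transcripts. Its variable exons are included or skipped to give the standard and the variant forms of the receptor, and counts per gene do not separate them. On the opposite strand, exons of CD44-AS1 share 0.841% and those of CD44-DT 0.701% of the exonic length of CD44.

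VIM encodes vimentin, the intermediate filament protein that marks mesenchymal cells. It was measured at 10.99, 11.01 and 10.95 log2 CPM in DMSO and at 10.48, 10.42 and 10.43 with fostamatinib. The groups were separate by 7.50 times the widest range within a group. VIM fell by 0.54 on the log2 scale (SE 0.032, 95% interval -0.60 to -0.48, adjusted p = 1.64e-16, limma), or 1.45-fold, and still gave 18223 to 19641 reads per fostamatinib sample. The gene (ENSG00000026025) lies at chr10:17270240-17279592, and 12.7% of its exonic length is shared with the opposite-strand VIM-AS1. VIM-AS1 itself had 30 to 45 reads in DMSO and 25 to 49 with fostamatinib, so reads of that transcript were few beside those of VIM.

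CDH2 encodes N-cadherin, the cadherin that cells gain in epithelial-mesenchymal transition and that liver cells and their tumours also express. It was measured at 8.61, 8.66 and 8.65 log2 CPM in DMSO and at 8.42, 8.41 and 8.47 with fostamatinib. The groups did not overlap, with a gap of 2.30 times the widest range. CDH2 fell by 0.20 (SE 0.036, adjusted p = 1.33e-05, limma), or 1.15-fold, which exceeded only 40.1% of all genes in absolute size. It lies at chr18:25512843-25757910 on the minus strand.

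FN1 encodes fibronectin, which hepatocytes also secrete into plasma. It was the member with the most reads, between 64618 and 76173 per sample. Its level was 12.20, 12.29 and 12.27 log2 CPM in DMSO and 12.25, 12.34 and 12.37 with fostamatinib, and the groups overlapped. The log2 difference was 0.07 (SE 0.033, 95% interval 0.0058 to 0.14, adjusted p = 0.068, limma; exact permutation p = 0.3), and the interval leaves no room for a change of 2-fold. FN1 passed the threshold, on the higher side, when DMSO replicate 2 (adjusted p = 0.038), DMSO replicate 3 (0.0474) or fostamatinib replicate 1 (0.00762) was left out, and in limma-voom (0.0204).

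ZEB2 had the next largest difference among the members. Its level was 5.65, 5.69 and 5.71 log2 CPM in DMSO and 4.97, 4.96 and 5.12 with fostamatinib, from 692 to 789 reads against 431 to 460. All fostamatinib samples were lower. ZEB2 fell by 0.67 on the log2 scale (SE 0.063, 95% interval -0.80 to -0.54, adjusted p = 4.27e-11, limma), or 1.59-fold. It lies at chr2:145121931-145278624 on the minus strand. Of its exonic length, 4.97% is shared with ZEB2-AS1 on the opposite strand and 11.3% with a pseudogene on the same strand, so the assignment of reads there is uncertain.

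ZEB1 changed less. It was measured at 4.78, 4.78 and 4.83 log2 CPM in DMSO and at 4.51, 4.56 and 4.55 with fostamatinib, from 377 to 422 reads against 309 to 336. The groups were separate, and ZEB1 fell by 0.26 (SE 0.072, 95% interval -0.40 to -0.11, adjusted p = 0.00336, limma), or 1.20-fold. ZEB1-AS1, which shares 4.58% of its exonic length, had 52 to 76 reads in DMSO and 42 or 43 with fostamatinib, with a log2 difference of -0.41 and an adjusted p of 0.0642 (limma). ZEB1 lies at chr10:31607424-31818742.

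CDH1 was one of the 2 members that rose. Its level was 7.01, 7.05 and 7.01 log2 CPM in DMSO and 7.42, 7.47 and 7.48 with fostamatinib, from 1770 to 2026 reads against 2360 to 2522. All fostamatinib samples were higher, by a gap of 6.04 times the widest range within a group. CDH1 was higher by 0.43 on the log2 scale (SE 0.042, 95% interval 0.35 to 0.52, adjusted p = 9.91e-11, limma), or 1.35-fold. It lies at chr16:68771195-68869440, where an unnamed long non-coding RNA on the opposite strand shares 5.71% of its exonic length.

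EPCAM was higher by a smaller margin. Its level was 5.24, 5.25 and 5.30 log2 CPM in DMSO and 5.34, 5.43 and 5.54 with fostamatinib. The lowest fostamatinib sample lay just above the highest DMSO sample, with a gap of 0.188 times the widest range within a group. The log2 difference was 0.17 (SE 0.064, 95% interval 0.044 to 0.30, adjusted p = 0.0234, limma), or 1.13-fold. This call was lost without the mean-variance trend (adjusted p = 0.0908) and when DMSO replicate 1 (0.0733), DMSO replicate 2 (0.0548), fostamatinib replicate 2 (0.0552) or fostamatinib replicate 3 (0.18) was left out. EPCAM lies at chr2:47572297-47614740.

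**Figure D2:**
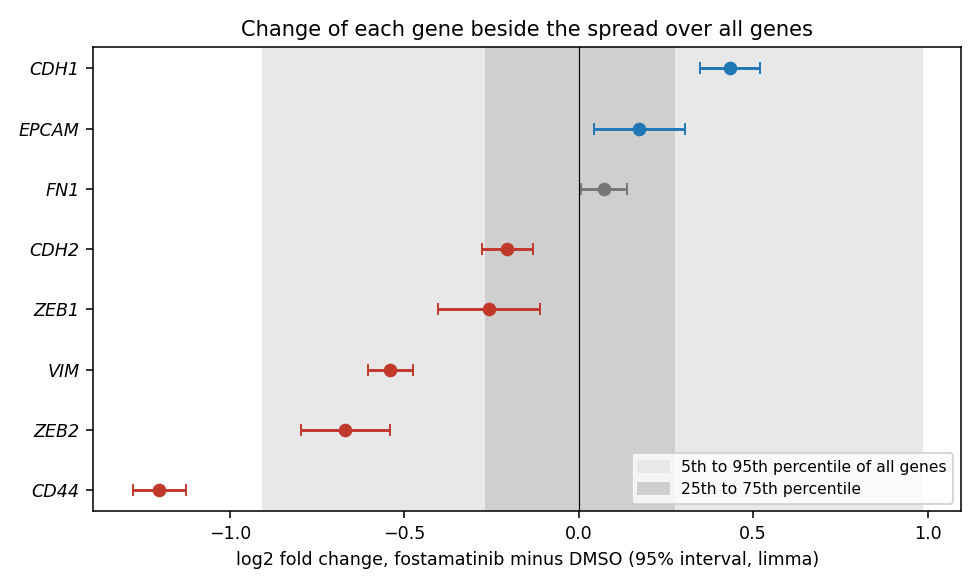
Log2 difference of each measured gene, fostamatinib minus DMSO (horizontal axis), with its 95% interval from limma, above the range that holds the middle of all 16305 genes (dark band, 25th to 75th percentile; light band, 5th to 95th). CD44 lies outside the light band, and EPCAM, FN1, CDH2 and ZEB1 lie inside the dark band.

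Against the spread of all genes, CD44 fell below the 5th percentile of the log2 differences (-0.91). ZEB2 and VIM lay below the 25th percentile (-0.27), and CDH1 lay above the 75th (0.27). The other 4 measured members lay within the central range, so the calls of EPCAM, CDH2 and ZEB1 rest on small differences.

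To compare levels between genes, each value was divided by the length of the exons of the gene (log2 RPKM, over the union of annotated exons). In DMSO the order from high to low was VIM (8.61), FN1 (8.14), CDH2 (5.54), CD44 (5.39), CDH1 (4.42), EPCAM (3.98), ZEB1 (1.68) and ZEB2 (0.98), and no neighbours in this order had overlapping ranges. The cells treated with solvent thus carried VIM, FN1 and CDH2 transcripts together with those of CDH1 and EPCAM, and each of the former stood above both of the latter. With fostamatinib the order was FN1 (8.22), VIM (8.07), CDH2 (5.33), CDH1 (4.85), CD44 (4.19), EPCAM (4.16), ZEB1 (1.43) and ZEB2 (0.31). CD44 thus moved from above CDH1 to below it and to the level of EPCAM, from which it differed by 0.034 with overlapping ranges. VIM and FN1 exchanged the top places. With the length of the longest transcript in place of the union of exons, ZEB2 stood above ZEB1 in DMSO. The order of that pair thus depends on the length used. With that length the mean of FN1 was still above that of VIM with fostamatinib (9.12 against 9.03). Their ranges then overlapped, so the exchange of these genes is less clear. With that length CD44 also stood above EPCAM with fostamatinib, by 0.36, 0.24 and 0.18 log2 units in the 3 samples, so their equal level depends on it too, whereas CD44 was still below CDH1 (5.07 against 5.19).

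**Figure D3:**
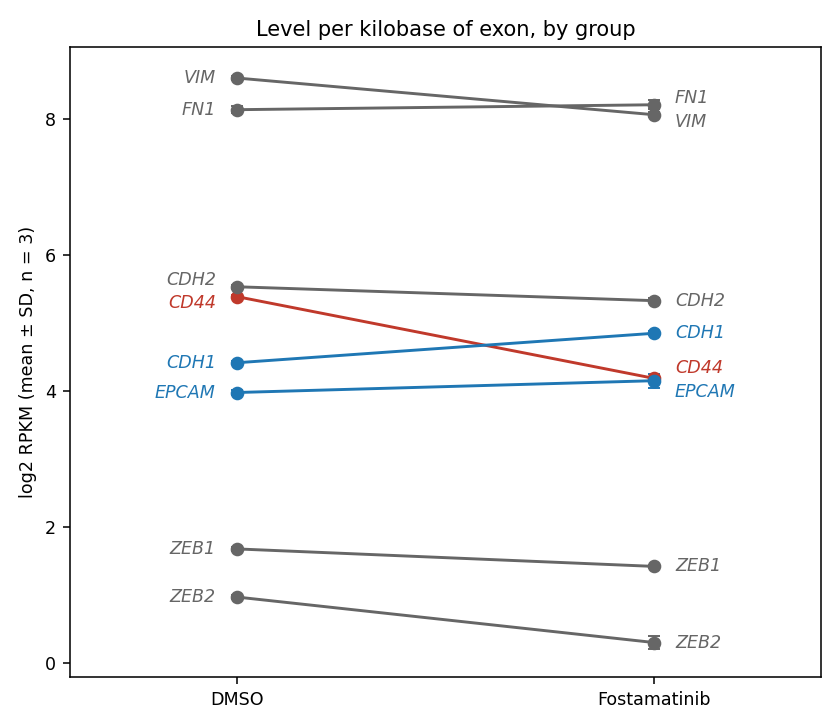
Mean level per kilobase of exon in log2 RPKM (vertical axis) with SD (n = 3) of the 8 genes in DMSO and with fostamatinib, each pair joined by a line. CD44 (red) falls from above CDH1 to the level of EPCAM (above EPCAM by 0.26 with the length of the longest transcript), and the epithelial genes CDH1 and EPCAM (blue) end higher with fostamatinib than in DMSO.

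Ratios of members within a sample do not depend on library size. VIM exceeded CDH1 by 4.21, 4.19 and 4.17 log2 units per length in DMSO and by 3.29, 3.18 and 3.17 with fostamatinib, so the mean excess went from 18.2-fold to 9.28-fold. CDH2 exceeded CDH1 by 1.10, 1.11 and 1.14 log2 units in DMSO and by 0.50, 0.45 and 0.49 with fostamatinib, from 2.17-fold to 1.39-fold. In both ratios the 2 groups were separate, and the mesenchymal partner remained the more abundant. CD44 exceeded EPCAM by 1.42, 1.41 and 1.39 log2 units in DMSO, and by 0.13, 0.02 and -0.05 with fostamatinib. With the length of the longest transcript the mean excess was 28.0-fold in DMSO and 14.3-fold with fostamatinib for VIM over CDH1, 3.67-fold and 2.36-fold for CDH2 over CDH1, and 3.11-fold and 1.20-fold for CD44 over EPCAM. The log2 difference between groups is the same with either length.

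The 5 genes nearest to CD44 in pattern were found by the root mean square distance between their mean-centred log2 CPM values over the 6 samples, among 9974 genes that averaged 100 reads or more in both groups. They were CHST11 (distance 0.0311), a chondroitin sulfotransferase, IL1RAP (0.0319), a subunit of the interleukin-1 receptor, IFNGR1 (0.037), a chain of the interferon-gamma receptor, PCNA (0.0376), the sliding clamp of DNA replication, and XPOT (0.0439), an exporter of tRNA. Their log2 differences were between -1.24 and -1.13. With 6 samples in 2 groups this measure follows mainly the size of the difference between groups, and it is given as a description.

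The wider epithelial and mesenchymal programmes were read from lists that include the members. Over all genes, those with few reads included, 47.8% were called, 23.3% higher and 24.5% lower. The share called was 72.7% of tested junction genes, 33.3% of identity regulators and 66.7% of mesenchymal transcription factors. It was 88.5% in the filament, contractile and adhesion list and 72.7% in the matrix list. For CD44 ligands and hyaluronan enzymes it was 83.3%, and for genes that bind, cut or splice CD44 it was 58.3%. Of 36 genes of epithelial junctions, 33 were tested, and 16 were higher, 8 were lower and 9 were not called, with a median log2 difference of 0.13. The largest rises were those of TJP3, a tight junction scaffold (224 to 278 reads in DMSO and 658 to 758 with fostamatinib, log2 difference 1.54, adjusted p = 3.65e-19, limma), and of CLDN2, a pore-forming claudin (1.20, adjusted p = 3.60e-07). CLDN2 had fewer reads, 37 to 49 in DMSO and 72 to 112 with fostamatinib. Falling furthest were CLDN1, a sealing claudin that also serves hepatitis C virus entry (8934 to 9655 reads in DMSO and 3455 to 3653 with fostamatinib, log2 difference -1.29, adjusted p = 4.90e-24), and CLDN6 (-0.74). The catenins assemble on the tail of E-cadherin. Their log2 differences were 0.42 for CTNND1, 0.62 for JUP, 0.13 for CTNNA1 and 0.08 for CTNNB1, the last at adjusted p = 0.044 (limma). Junction genes therefore moved in both directions, and CLDN1 fell by more than CDH1 rose on the log2 scale.

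Of 16 regulators and markers of epithelial identity, 9 were tested, of which 1 was higher, 2 were lower and 6 were not called (median -0.014). SPINT1, an inhibitor of membrane serine proteases, rose by 1.19 on the log2 scale, from 291 to 371 reads in DMSO to 708 to 725 with fostamatinib (adjusted p = 7.45e-17, limma). KLF4, a transcription factor of epithelial differentiation, fell by 0.98 (adjusted p = 3.94e-11), and CDS1 fell by 0.35 (adjusted p = 0.0165). GRHL2, OVOL1, OVOL2 and ESRP1 were not analysed here.

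Among 18 mesenchymal transcription factors, SNAI2 and TWIST1 included, 12 were tested, and 3 were higher, 5 were lower and 4 were not called (median -0.15). RUNX2 (log2 difference 0.35, adjusted p = 0.00122, limma) and TCF4 (0.22, adjusted p = 0.0272) rose. SNAI1, another repressor of CDH1, had 111 to 142 reads in DMSO and 121 to 143 with fostamatinib, overlapping groups and an adjusted p of 0.178. The extremes of this list, PRRX1 and SNAI3, had means of at most 9 reads in either group. The number of these factors called was 5 rather than 8 without the mean-variance trend and also without DMSO replicate 2.

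Of 30 genes of mesenchymal filaments, contraction and cell-matrix adhesion, 26 were tested, and 19 were lower, 4 were higher and 3 were not called, with a median log2 difference of -0.41. VIM and CDH2 are among the 19. CNN1, the calponin of smooth muscle, went from 116 to 132 reads in DMSO to 28 to 61 with fostamatinib (log2 difference -1.52, adjusted p = 1.89e-08, limma), and NES, the intermediate filament protein nestin, from 1385 to 1595 reads to 571 to 638 (-1.22, adjusted p = 2.07e-19). The largest rises were those of PALLD, an actin-bundling protein (0.71, adjusted p = 3.45e-18), and S100A4, a calcium-binding protein (0.63, adjusted p = 0.00366). S100A4 had few reads, 37 to 65 in DMSO and 64 to 86 with fostamatinib. The summed level of the list was 8463 to 8574 CPM in DMSO and 6880 to 6964 CPM with fostamatinib, without overlap. Of this, VIM alone gave 1977.5 to 2059 CPM in DMSO and 1367 to 1428 CPM with fostamatinib. Sums of the other epithelial and mesenchymal lists were separate too. With fostamatinib the sum was lower for matrix genes (8281 to 8682 CPM in DMSO against 7298 to 7779) and mesenchymal transcription factors. It was higher for junction genes (4462 to 4486 CPM in DMSO against 4674 to 4799) and identity regulators.

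Matrix genes were more divided. Of 31 listed, 22 were tested, and 12 were lower, 4 were higher and 6 were not called (median -0.25). THBS1, which encodes thrombospondin, went from 1099 to 1144 reads in DMSO to 284 to 324 with fostamatinib, a log2 difference of -1.79 (adjusted p = 4.24e-22, limma). COL1A2 rose by 0.37 (adjusted p = 3.15e-09) and VCAN by 0.33 (adjusted p = 6.50e-09), while FN1, the most abundant of the list, was not called. The matrix genes of the mesenchymal programme thus did not move as a unit.

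**Figure D4:**
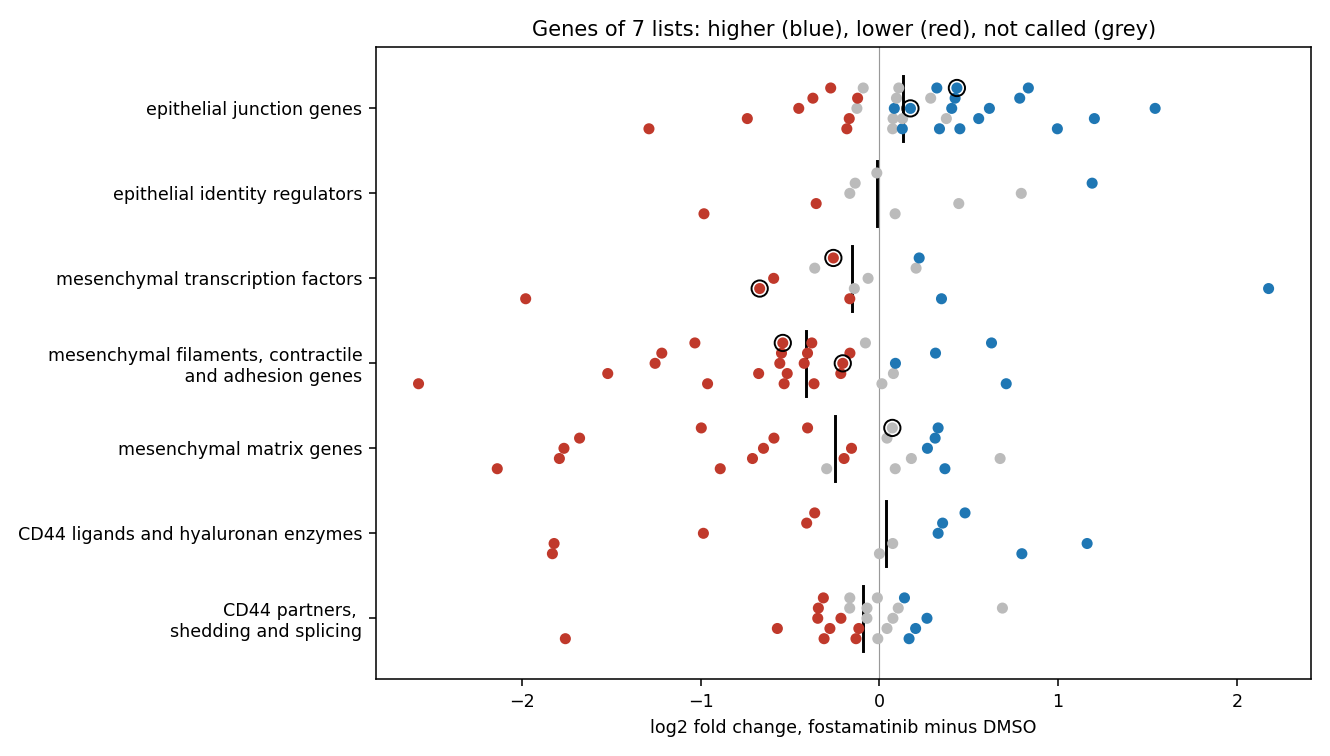
Log2 difference, fostamatinib minus DMSO (horizontal axis), of every tested gene in 7 lists (rows), coloured by the limma call: higher (blue), lower (red) or not called (grey). Black bars are list medians and rings mark the members. Points lie mostly left of zero in the filament, contractile and adhesion list (19 of 26 lower) and on both sides in the others.

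The ligands of CD44 and the enzymes that make or cut hyaluronan were split, with 5 of 12 tested higher, 5 lower and 2 not called (of 20 listed, median 0.038). HAS2, a hyaluronan synthase of the plasma membrane, went from 119 to 154 reads in DMSO to 27 to 45 with fostamatinib, a log2 difference of -1.83 (adjusted p = 1.77e-11, limma). HAS3, the other synthase measured, was lower as well (-0.98, adjusted p = 0.000173), with few reads (46 to 58 in DMSO and 23 to 28 with fostamatinib). SPP1, which encodes osteopontin, a secreted ligand of CD44, fell by 1.82 on the log2 scale, from 192 to 263 reads to 59 or 60 (adjusted p = 9.64e-15). UGDH, which makes the UDP-glucuronate used for hyaluronan, rose by 0.48 (adjusted p = 2.15e-12), and HMMR, an intracellular and cell-surface hyaluronan-binding protein of dividing cells, rose by 0.35 (adjusted p = 3.58e-06). The receptor, both measured synthases and osteopontin were thus lower, whereas VCAN (0.33), HYAL1 (1.16) and LYVE1 (0.80) were also called higher. HYAL1 and LYVE1 averaged at most 41 reads in a group. The summed level of the list was 1225 to 1304 CPM in DMSO and 1246 to 1294 CPM with fostamatinib, with overlap.

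Genes of proteins that bind or cut CD44, or splice its RNA, were mostly within a narrow range, with SLC7A11 apart. Of 28 listed, 24 were tested, and 4 were higher, 10 were lower and 10 were not called (median -0.092). SLC7A11, the cystine transporter that CD44 variants stabilise at the cell surface, fell by 1.76 on the log2 scale, from 812 to 868 reads in DMSO to 209 to 252 with fostamatinib (adjusted p = 1.05e-20, limma). Of the sheddases, ADAM17 fell by 0.57 (adjusted p = 7.83e-11), and ADAM10 had a log2 difference of -0.0087 with an adjusted p of 0.887. Of the subunits of gamma-secretase, which cuts the remaining stub, APH1A rose by 0.27 (adjusted p = 1.08e-05). Ezrin (EZR), which links CD44 to actin, rose by 0.17 (adjusted p = 6.28e-05), and its relative MSN had at most 12 reads on average in a group. Among the splicing genes, PTBP1 and HNRNPA1 fell by 0.34, TRA2B and SRSF3 by 0.31, SRSF10 by 0.21 and HNRNPM by 0.11 (adjusted p = 0.0124 for HNRNPM). SRRM1 rose by 0.14, and KHDRBS1 and DDX5 were not called. ESRP2, a splicing regulator of the variable exons, had a log2 difference of -0.17 with an adjusted p of 0.0517.

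Markers of the cell types a culture of liver tumour cells could hold were measured beside these results. All 14 hepatoma markers were present and called, beside 47.8% of all genes, and 12 were higher with fostamatinib, beside 23.3% of all genes. Among the 12 were APOA1 (log2 difference 3.19, from 20 to 23 reads to 185 to 194) and HNF4A (1.02). KRT18 (-0.86) and KRT8 (-0.56), the keratins of simple epithelia, were lower, which is opposite to CDH1. The summed level of the hepatoma markers was 10017 to 10446 CPM in DMSO and 10561 to 10861 CPM with fostamatinib. Of 10 fibroblast and stellate cell markers, 5 were measured, with a sum of 297 to 306 CPM in DMSO and 308 to 312 CPM with fostamatinib, and DCN, PDGFRA, ACTA2, THY1 and FAP were not analysed here. Of 7 endothelial markers 2 were measured (19.2 to 21.0 CPM against 17.0 to 19.6), and of 8 leukocyte markers 4 (41.1 to 43.6 CPM against 34.2 to 39.9), with PTPRC, CD3E and CD68 among those not analysed here. The part of other cells in the fall of VIM, CDH2 or CD44 was not tested.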

How the data were processed

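Poly(A) RNA of 3 fostamatinib and 3 DMSO samples was sequenced from directional libraries. The authors aligned the reads with HISAT (hg19), obtained gene counts with featureCounts and GENCODE version 22, dropped genes with under 5 reads in at least 2 samples of each group, and deposited log2 CPM values, TMM-scaled with 0.5 added to each count. The strand setting of the counting is not given in the sources used here, so reads of overlapping opposite-strand genes may not be separated.

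A linear model with treatment as the single term was fitted to the log2 values of 16305 genes with limma 3.58.1 in R 4.3.3 (eBayes with trend), and an adjusted p-value under 0.05 was a call. The variance shared across genes gave a median of 33.9 total degrees of freedom, beside 4 among the samples. Count tests were not used because the authors deposited log2 values. Reads were recovered from them (100% within 0.05 of a whole number) for depth, filters and limma-voom. The code was checked on simulated data. Tables used pandas 2.3.3, numpy 2.4.6 and scipy 1.17.1 under Python 3.11.15. Exon lengths and GRCh37 coordinates came from GENCODE version 44 mapped to GRCh37 (98.7% of identifiers found), and promoters from RefSeq on GRCh38.p14.

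The members and lists were chosen with earlier results of these data known. Named from each list were the called genes that rose most (2) and fell most (2), if they averaged 50 reads or more in the higher group, and the 5 genes nearest to CD44; some genes that meet this rule are not reported here. The catenins, HAS3, HYAL1, LYVE1, VCAN as a CD44 ligand, EZR, MSN, ADAM10, the splicing genes, SNAI1, PRRX1, SNAI3 and the cell type markers were named after their values were seen. Alternatives were no variance trend, limma-voom, RLE size factors, library size alone, at least 10 reads in every sample, a filter met by both groups, 2 reads added, a replicate block, and the omission of each sample.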

Additional observations from a re-analysis of the deposited data

How the results depend on the processing

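CD44, VIM, ZEB2, ZEB1, CDH2 and CDH1 kept their direction and their call under all 14 alternatives, with log2 differences of -1.21 to -1.19, -0.56 to -0.53, -0.72 to -0.64, -0.27 to -0.24, -0.22 to -0.19 and 0.42 to 0.45. Their highest adjusted p-value was 0.0171, for CDH2 (limma). Without the variance trend the adjusted p was 0.000144 for CD44 and 0.000934 for VIM (limma). EPCAM was higher in all 14 (0.12 to 0.22) and lost its call in 5. FN1 was on the higher side in all 14 (0.046 to 0.11) and was called in 5. Between 6 and 8 members and between 6382 and 7977 of all genes were called. Without the variance trend, 5 mesenchymal transcription factors were called instead of 8, and leaving out 1 sample at a time gave 5 to 8. Leaving out 1 sample called 0 to 1 of the 2 measured antisense genes, 1 without DMSO replicate 2. For these counts the cause was not tested. Scaling moved the median log2 difference of all genes to between -0.0096 and 0.0052.

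No pairing by replicate number was detected: same-numbered samples had correlations of 0.0457, -0.0576 and 0.0541 over 10312 genes (across genes, which are not independent). Differently numbered samples had correlations from -0.146 to 0.124. The labels name no shared culture or day, and these values cannot show whether samples were handled in pairs. With the replicate block 7977 genes and all 8 members were called, FN1 at an adjusted p of 0.041 (limma).

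With the variance trend the SE was 0.032 for VIM, with 18223 reads or more in each sample, and 0.072 for ZEB1, with 309 to 422 reads. Without the trend it was 0.044 for VIM and 0.042 for ZEB1, so the larger SE of ZEB1 came with the trend. Expression was measured at 1 dose and 1 time, in RNA alone.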
